A study of Mus musculus with 2 samples.

Results

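The 40 genes described here encode transcription factors that specify or maintain the cell lineages of the pancreas. They were chosen by name, with earlier results of these data known. Their values come from the 57 gene probes that carry these names among 55681 gene probes on the array (34797 gene names in all). Transcripts were measured on 2 mouse oligonucleotide arrays, each hybridised with 1 Cy3-labelled sample of total RNA. The CSE-KO array held RNA of CSE knockout mice on a high-fat diet, and the CSE-WT array, named as the control, held RNA of wild-type mice on the same diet. The labels call both samples beta cells, from the C57BL/6J strain at an age of 6 months. CSE is cystathionine gamma-lyase, the product of Cth, an enzyme that makes hydrogen sulfide from cysteine. The knockout is not described as restricted to one cell type, and neither the number of animals per sample nor the way the cells were isolated is given in the sources used here. The comparison asks how the knockout differs from the wild type under that diet.

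Pancreatic transcription factors act in sequence. FOXA, HNF and GATA factors set up the foregut endoderm, PTF1A, SOX9 and PDX1 mark early pancreatic cells, and a pulse of NEUROG3 starts the endocrine programme, which NEUROD1, NKX2-2, ISL1, PAX6, RFX6 and INSM1 carry on. In the mature organ, MAFA, PDX1 and NKX6-1 sustain beta cells, the Iroquois factors IRX1 and IRX2 are typical of alpha cells, HHEX of delta cells, and PTF1A with RBPJL, BHLHA15 and NR5A2 of the enzyme-secreting acinar cells.

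Each genotype had 1 array, so no difference below has a replicate check, no test was made, and the values describe these 2 samples. Intensities are in the arbitrary units of the scanner software. Differences are CSE-KO minus CSE-WT in log2 units, taken after each array had been scaled to its 75th percentile over gene probes (539.6 units for CSE-KO, 519 for CSE-WT). A gene was measured when 1 of its probes was well above background on both arrays, and its brightest such probe gave its value. In place of a test, a difference was set against the spot SD, the technical spread expected from probes printed 10 times on each array, which was 0.079 log2 units at the median level of the measured genes. Differences over 3 spot SD and differences of at least 2-fold were counted. The spot SD covers technical spread inside an array, not the spread between mice or preparations. Some areas of the slide, called patches here, held clusters of dim spots that were far brighter on 1 array than on the other. Of the spots in patches, 59 lay where CSE-KO was brighter and 2873 where CSE-WT was brighter, so members in patches are named as such. The targeted gene could not serve as a check of the labels: its 2 probes read 3.15 and 3.68 units in CSE-KO and 13.5 and 12.8 units in CSE-WT, and neither passed the background limit.

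The labelled cell type did not describe all of the RNA. The insulin genes Ins1 and Ins2 were intense on both arrays (482701 and 330923 units in CSE-KO, 503410 and 332046 units in CSE-WT), but so were the glucagon gene Gcg (360773 units in CSE-KO and 381292 units in CSE-WT), the somatostatin gene Sst (235240 and 234576 units) and the acinar amylase gene Amy2a5 (149025 and 191897 units). Factors of alpha, delta and acinar cells were therefore read from a mixture, in which fewer cells of a type and less RNA per cell cannot be told apart.

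Of the 40 factors, 34 were measured. The 2 measured factors of alpha cells were lower in CSE-KO by over 3 spot SD, 3 of 10 factors of endocrine cells in general were too, the factors of beta cells lay within 0.25 log2 units of equal levels by their brightest probes, and Sox4 and Rbpjl were the members furthest above CSE-WT. In all, 10 of the 34 members were higher in CSE-KO and 24 were lower, where 48.7% of all 22160 measured genes were higher and 51.3% lower. The median member difference was -0.10, against -0.0060 over all measured genes. Members over 3 spot SD numbered 4 higher (Sox4, Rbpjl, Ovol2 and Bhlha15; 9.66% of all measured genes) and 10 lower (10.7% of all measured genes). The lower ones were Ptf1a, Irx1, Irx2, Neurog3, Foxa3, Isl1, Hnf4a, Nkx2-2, St18 and Pdx1. No member was at least 2-fold higher (0.718% of all measured genes), and 1, Ptf1a, was at least 2-fold lower (0.884%). The spot SD shrinks as genes get brighter, and 20 members were brighter than the median measured gene. Of those 20, 3 were higher and 7 lower by over 3 spot SD, against 10.8% and 15% of the measured genes above that level. With the 3 members whose brightest probe lay in or beside a patch left out, 10 of 31 were higher and 21 lower (49.4% and 50.6% of measured genes outside patches), and the median was still -0.10. Of those 31, 4 were higher and 8 lower by over 3 spot SD (9.69% and 9.85% of genes outside patches). None reached 2-fold in either direction (0.702% higher and 0.412% lower). In these shares, genes whose brightest probe was in a patch were read from another measured probe where there was one. Read that way, Neurod1 returned and was lower by over 3 spot SD, with 10 of 32 members higher and 22 lower.

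**Figure D1:**
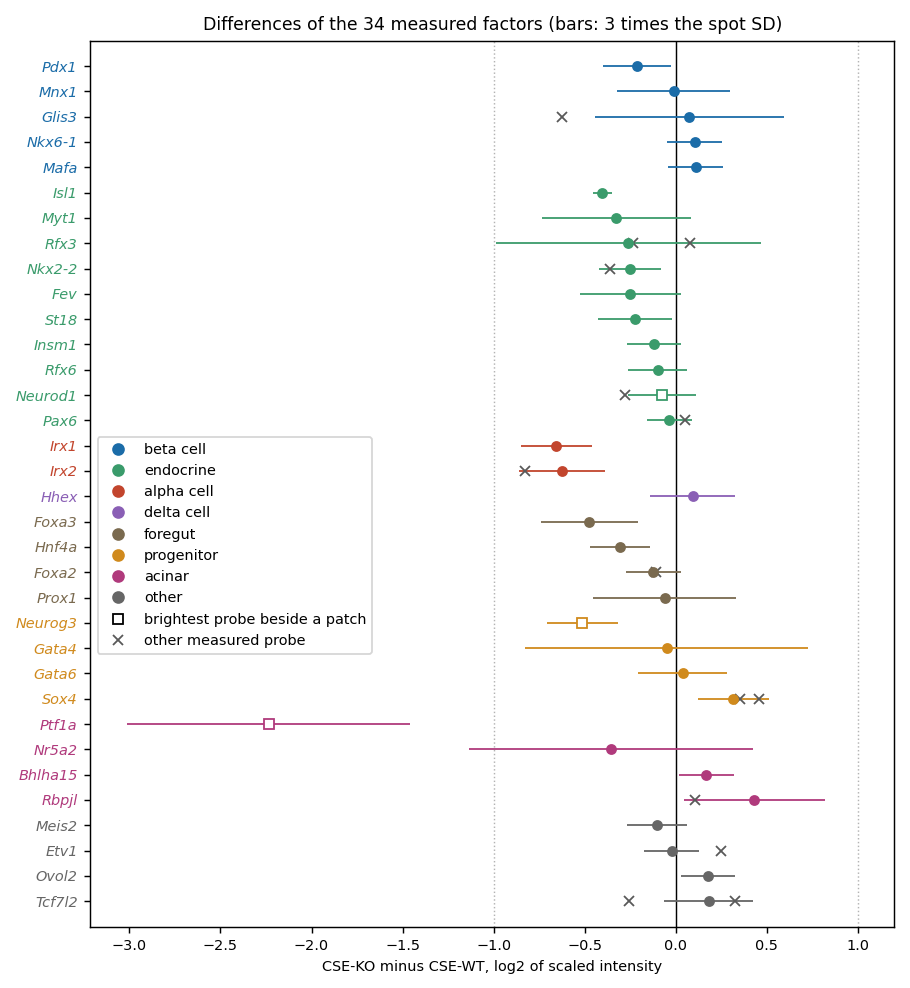
Difference between the CSE-KO and CSE-WT arrays (log2 units of scaled intensity, horizontal axis) for the 34 measured factors, grouped by role in the pancreas. Points are the brightest measured probe of each gene, bars reach 3 spot SD to each side, crosses are other measured probes of the same gene, open squares mark probes in or beside a patch, and dotted lines mark 2-fold. Irx1, Irx2 and Isl1 lie left of 0 with bars that do not reach it, Ptf1a lies furthest left at -2.24, and the 3 probes of Sox4 all lie right of 0.

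The alpha-cell factors Irx1 and Irx2 were lower in CSE-KO, with the largest differences of any member outside patches. Both are homeodomain proteins of the Iroquois family, and their genes belong to the same Iroquois gene cluster on chromosome 13. Irx1 read 1173 units in CSE-KO and 1780.5 units in CSE-WT, a difference of -0.66 (1.58-fold lower) that was 10.1 times its spot SD. Irx2 read 471 units in CSE-KO and 698 units in CSE-WT, a difference of -0.62 (1.54-fold lower) and 7.92 times its spot SD. Its other probe, 2656 bases away, was also lower, at 44.0 units in CSE-KO and 75.3 units in CSE-WT (-0.83). None of the dim spots around the brightest Irx1 and Irx2 probes was far brighter on either array, and over the 7 other scalings and background corrections tried the 2 differences stayed between -0.69 and -0.62 for Irx1 and between -0.66 and -0.55 for Irx2. Pou3f4, a POU-domain factor of alpha cells, read 3.40 units in CSE-KO and 12.5 units in CSE-WT, not well above background in either.

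The readings of these factors rest on the probes below, 60 bases each, of which the first 30 bases are given because they show what hybridised for the members with the clearest differences and for those with a technical limit. Positions are on mouse build mm9, as annotated in the array files.
Irx1, chr13:72095735-72095794, minus strand: ctttgtttcttttttcccctttctgtatat
Irx2, brighter probe, chr13:72771499-72771558, plus strand: gatacctacggttccagtttattcacatag
Irx2, dimmer probe, chr13:72768784-72768843, plus strand: cggggatgccttgtgcgaatcaggctcaga
Isl1, chr13:117088774-117088833, minus strand: cccccaaagatgtgtatagttattggttaa
Sox4, brightest probe, chr13:29040826-29040885, minus strand: aatcctgtccgtcactgcctgtcaggttgt
Sox4, middle probe, chr13:29042856-29042915, minus strand: ttttctgcaatgaagacagaaagaaggctc
Sox4, dimmest probe, chr13:29044482-29044541, minus strand: tcaagcacatggctgactaccctgactaca
Foxa3, chr7:19599053-19599112, minus strand: tgaccttttgagtatgtgacagaacacatc
Hnf4a, chr2:163398548-163398607, plus strand: ggggtaaaaaagagaaaaagccctcaaaaa
Neurog3, chr10:61597452-61597511, plus strand: gtctcccgtgtctaaagtgtgagttgcagg
Ptf1a, chr2:19368720-19368779, plus strand: aggaccccagaaaactcaacagtaaatctt
Rbpjl, brighter probe, chr2:164240195-164240254, plus strand: gagcaggaaggagagagatagctcacctga
Rbpjl, dimmer probe, chr2:164236749-164236808, plus strand: cttaagggaacagtgttgccccctggagga
The Irx1 and Irx2 probes are 672990 bases apart. Irx1 is read from the minus strand and Irx2 from the plus strand. A genome sequence of this build was not used here, so the exon or untranslated region of each probe was not determined.

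Genes that do not belong to the 40 factors but act in alpha cells were mostly below CSE-WT. Slc38a5, an amino acid transporter gene of alpha cells, read 2702 units in CSE-KO and 5195 units in CSE-WT (-0.999), and the arginine transporter gene Slc7a2 was 1.24-fold lower (-0.31). The hormone gene itself, Gcg, was 1.10-fold lower (-0.14, and -0.17 to -0.019 over the scalings). Of 10 alpha-cell effector genes, 8 were measured, with a median of -0.23. Of these, 7 were lower in CSE-KO (5 to 7 over the scalings and background corrections, and 51.3% of all measured genes). By over 3 spot SD, 4 were lower (3 to 4 over the other settings, and 10.7% of all measured genes). Gcg was among the 4 through a small spot SD of 0.016. The exception was Fap, a cell-surface protease gene, at 0.40, whose probe lay in a patch.

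All 10 factors of endocrine cells in general were measured. By their brightest probes, Isl1, Nkx2-2 and St18 were lower in CSE-KO by over 3 spot SD (2 to 5 factors over the other settings), and 7 lay within it. The share lower by over 3 spot SD was 10.7% of all measured genes and 15% of those above the median level. All 10 differences were below 0 (51.3% of all measured genes were), with a median of -0.24. The count below 0 was 10 under 5 of the 7 other scalings and background corrections, and 8 and 9 under the 2 that used normexp background correction, where Pax6 in both and Neurod1 in 1 turned to values just above 0 (0.076 and 0.089 for Pax6, 0.0052 for Neurod1). Isl1, a LIM-homeodomain factor needed for islet cell maturation and hormone gene expression, had the smallest spot SD of all measured members because its probe was printed 10 times. On the CSE-KO array its spots ranged from a lowest of 2427 units, through a median of 2514, to a highest of 2703. On the CSE-WT array, where 1 outlier spot was left out, they ranged from 3066 through 3194 to 3416 units. The 2 sets of spots did not overlap, and over the 9 spot positions used on both arrays the differences ran from -0.49 to -0.34. These spots are technical repeats of 1 sample each. The gene's difference was -0.40, or 1.32-fold lower.

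**Figure D2:**
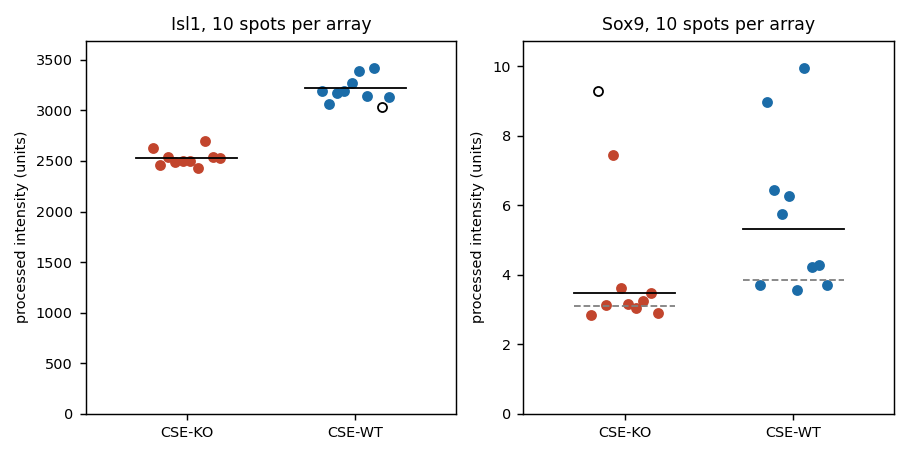
Processed intensity (units, vertical axis from 0) of each of the 10 spots of the Isl1 probe (left) and the Sox9 probe (right) on the CSE-KO and CSE-WT arrays. Solid lines are geometric means of the spots used, open circles are spots flagged as outliers and left out, and dashed lines in the right plot are the medians of 308 negative-control spots. All Isl1 spots of CSE-KO lie at 2703 units or less and all those used for CSE-WT at 3066 units or more, while the Sox9 spots lie around and above the negative-control medians on both arrays.

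Among the other endocrine factors, Nkx2-2, a homeodomain factor without which mice form no beta cells, was lower with both probes, which read 2701 and 1839 units in CSE-KO and 3091 and 2271 units in CSE-WT (-0.25 and -0.36). St18, a zinc finger factor of the Myt1 family, read 984 units in CSE-KO and 1105 units in CSE-WT (-0.22), and came within 3 spot SD when the arrays were scaled to their medians (-0.19). Its relative Myt1 was -0.33, at 126 units in CSE-KO and 151 units in CSE-WT, but lay within 3 spot SD. Fev, an ETS factor of serotonergic neurons and endocrine precursors, was likewise within 3 spot SD at -0.25 (289 units in CSE-KO, 331 units in CSE-WT). The zinc finger factor Insm1 (-0.12) and the winged-helix factor Rfx6 (-0.10) differed less. Neurod1, a basic helix-loop-helix activator of the insulin gene, gave -0.08 with its brightest probe, at 1715 units in CSE-KO and 1739 units in CSE-WT. That probe lay in a patch. The other Neurod1 probe, outside patches, gave -0.28 (1339 units in CSE-KO, 1566 units in CSE-WT), lower by over 3 spot SD. Without patch probes, 4 of the 10 endocrine factors were lower by over 3 spot SD. The probes of 2 factors pointed both ways: Pax6, a paired-domain factor of hormone gene transcription, gave -0.03 and 0.05, and the cilia and islet factor Rfx3 gave -0.26, -0.24 and 0.08, all within 3 spot SD.

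The beta-cell factors differed little, and 3 of the 5 measured were higher (2 to 4 over the other settings, and 48.7% of all measured genes). Pdx1, the homeodomain factor of pancreas formation and insulin transcription, was the one over 3 spot SD, at 1931 units in CSE-KO and 2150 units in CSE-WT (-0.21, 1.16-fold lower). Its difference was 3.39 times the spot SD and dropped within 3 spot SD when the arrays were scaled to their medians (-0.18). Mafa, the basic leucine zipper activator of the insulin genes, read 5547 units in CSE-KO and 4948 units in CSE-WT (0.11), and Nkx6-1, a homeodomain factor of beta-cell identity, read 21881 units in CSE-KO and 19602 units in CSE-WT (0.10). Both kept a positive sign under all 7 other scalings and background corrections and lay within 3 spot SD. Mnx1, a homeodomain factor of motor neurons and beta cells, was level at -0.01. The 2 probes of the zinc finger factor Glis3 pointed both ways, at 95.8 units in CSE-KO and 87.6 units in CSE-WT for the brighter (0.07) and 28.1 units in CSE-KO and 41.8 units in CSE-WT for the dimmer (-0.63), both within 3 spot SD. Pax4, a paired-domain factor of early beta cells, was not well above background (3.18 units in CSE-KO, 4.12 units in CSE-WT).

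All of the 18 genes listed as bound or driven by beta-cell factors were measured, and 8 were higher in CSE-KO and 10 lower, with a median of -0.06 that turned positive under 3 of the 7 other scalings. Ins1 was at -0.12 and Ins2 at -0.06, both within 3 spot SD and neither negative under every scaling. Of the list, 1 gene was higher by over 3 spot SD (9.66% of all measured genes were), the neuropeptide gene Npy, at 685 units in CSE-KO and 410.4 units in CSE-WT (0.68, 1.61-fold higher). A further 6 were lower by over 3 spot SD (4 to 8 over the other settings, and 10.7% of all measured genes), among them the cation channel gene Trpm5 (-0.33) and the granule docking gene Sytl4 (-0.27, in a patch).

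Hhex, the homeodomain factor of delta cells, read 673 units in CSE-KO and 607 units in CSE-WT, a difference of 0.09 that was 1.19 times its spot SD. The delta-cell hormone gene Sst differed by -0.05, over 3 spot SD because its probe was printed 10 times, but with the opposite sign under some scalings (up to 0.025). Of the 7 genes of delta, PP and ghrelin cells, 1 was higher and 6 were lower (4 to 6 over the scalings and background corrections). Over all measured genes, 48.7% were higher and 51.3% lower. By over 3 spot SD, 1 was higher and 3 were lower (9.66% and 10.7% of all measured genes). Those lower were Sst, Pyy (the peptide YY gene, -0.55) and Rbp4, at -0.36 from a probe in a patch. The ghrelin gene Ghrl read 1408 units in CSE-KO and 541 units in CSE-WT (1.33, 2.51-fold higher). Of all measured genes, 0.718% were at least 2-fold higher. The ghrelin receptor gene Ghsr was at -0.47, within 3 spot SD.

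**Figure D3:**
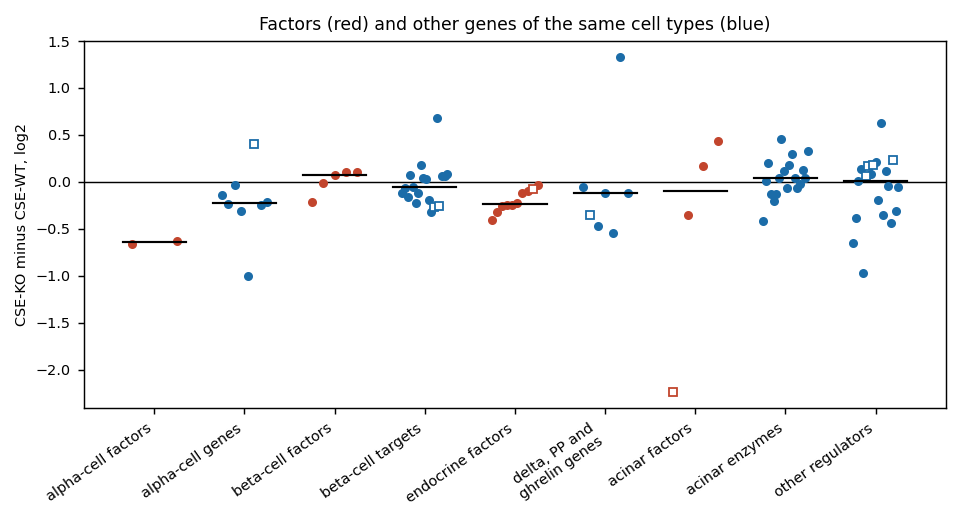
Difference between the CSE-KO and CSE-WT arrays (log2 units, vertical axis) for measured factors by lineage (red) and for other genes of the same cell types (blue). Each point is 1 gene, black bars are medians and open squares are genes whose probe lay in or beside a patch. The alpha-cell factors (median -0.64) and alpha-cell genes (median -0.23) lie mostly below 0, whereas acinar enzymes (median 0.04) and beta-cell targets (median -0.06) lie on both sides of it.

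Of the 4 measured foregut endoderm factors, Foxa3 and Hnf4a were lower in CSE-KO by over 3 spot SD (10.7% of all measured genes were) and 2 lay within it, of which Foxa2 passed it with spike-in scaling (-0.16). All 4 differences were below 0 (51.3% of all measured genes were), under the 7 other scalings and background corrections too, with a median of -0.21. Foxa3, a forkhead factor best known from liver, read 337 units in CSE-KO and 450 units in CSE-WT (-0.48, 1.39-fold lower, 5.37 times its spot SD). Hnf4a, a nuclear receptor whose human counterpart is a gene of monogenic diabetes, read 2709.7 units in CSE-KO and 3223 units in CSE-WT (-0.31, 1.24-fold lower, 5.50 times its spot SD). Foxa2, the forkhead factor of endoderm and mature islets, gave -0.12 and -0.11 with 2 probes that share 5 bases, at 15373 and 3043 units in CSE-KO and 16102 and 3154 units in CSE-WT. The homeodomain factor Prox1 was within 1 spot SD of equal levels (-0.06). Foxa1 (3.03 units in CSE-KO, 3.53 units in CSE-WT) and Onecut1 (6.61 and 6.04 units) were not well above background.

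The progenitor factors split by gene. Sox4, an HMG-box factor that promotes endocrine differentiation in the mouse embryo, was higher in CSE-KO with each of its 3 probes. They read 1681, 704 and 201 units in CSE-KO and 1298, 530 and 141 units in CSE-WT, which gave differences of 0.32, 0.35 and 0.46, each over 3 spot SD. By the brightest probe Sox4 was 1.25-fold higher, and it ranged from 0.23 to 0.38 over all settings tried. Neurog3, the factor that starts the endocrine programme, read 1411 units in CSE-KO and 1937 units in CSE-WT (-0.51, 1.43-fold lower). Its spot sat at the edge of a patch: 3 of 30 dim neighbouring spots were at least 2-fold brighter on the CSE-WT array, by 171 to 304 raw units, while the raw signal of the Neurog3 spot itself was lower by 486 units in CSE-KO. The part of the patch in the Neurog3 reading was not tested, and its other probe was not well above background. Gata4 (-0.05) and Gata6 (0.04), zinc finger factors of the early pancreas, were within 1 spot SD of equal levels. Sox9, the HMG-box factor of pancreatic progenitors and ducts, was not well above background with a probe printed 10 times, whose spots ranged from 2.85 to 7.44 units in CSE-KO, with 1 outlier spot at 9.29 units left out, and from 3.56 to 9.94 units in CSE-WT. The medians of the negative controls were 3.11 units in CSE-KO and 3.86 units in CSE-WT.

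The acinar factors also differed among themselves. Bhlha15, a basic helix-loop-helix factor of secretory cell structure, read 24080 units in CSE-KO and 20613 units in CSE-WT (0.17, 1.12-fold higher, 3.39 times its spot SD), and came within 3 spot SD with spike-in scaling (0.13). Rbpjl, a subunit of the PTF1 complex that drives enzyme genes, was higher with both probes, which read 187 and 47.0 units in CSE-KO and 133 and 42.0 units in CSE-WT (0.43 and 0.11). Its brighter probe was 1.35-fold higher and over 3 spot SD, and its dimmer probe was within 3 spot SD. The brighter probe also came within 3 spot SD with normexp correction (0.28 and 0.30), as did the mean of both probes (0.27). Nr5a2, a nuclear receptor of acinar cells, was at -0.36 within 3 spot SD, from 1 dim probe (22.1 units in CSE-KO, 27.2 units in CSE-WT), while its other probe was not above background.

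Ptf1a, the helix-loop-helix partner of RBPJL, had the largest difference of all members and the least secure one. It read 19.0 units in CSE-KO and 85.9 units in CSE-WT (-2.24, 4.71-fold lower). Its single spot lay inside a patch, where 12 of 28 dim neighbouring spots were at least 2-fold brighter on the CSE-WT array, by 89.6 to 708 raw units (median 156). The raw signal of the Ptf1a spot was 84.3 units on the CSE-KO array and 156 units on the CSE-WT array, a gap of 71.2 units that is smaller than that of each of those 12 neighbours. The difference shrank to between -0.89 and -0.84 with normexp background correction, and no other Ptf1a probe was on the array. How much of the difference came from the patch was not tested. The acinar enzyme genes read both ways: of 18 measured, 11 were higher and 7 lower (48.7% and 51.3% of all measured genes), with a median of 0.04. Their summed intensity, before scaling, was 617471 units in CSE-KO and 615732 units in CSE-WT. The 75th percentile used for scaling was also higher for CSE-KO (539.6 against 519 units), so that small gap need not remain after scaling. Chymotrypsinogen Ctrb1 (0.46) and kallikrein Klk1 (0.33) were higher by over 3 spot SD, and amylase Amy2a5 (-0.42) was lower.

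**Figure D4:**
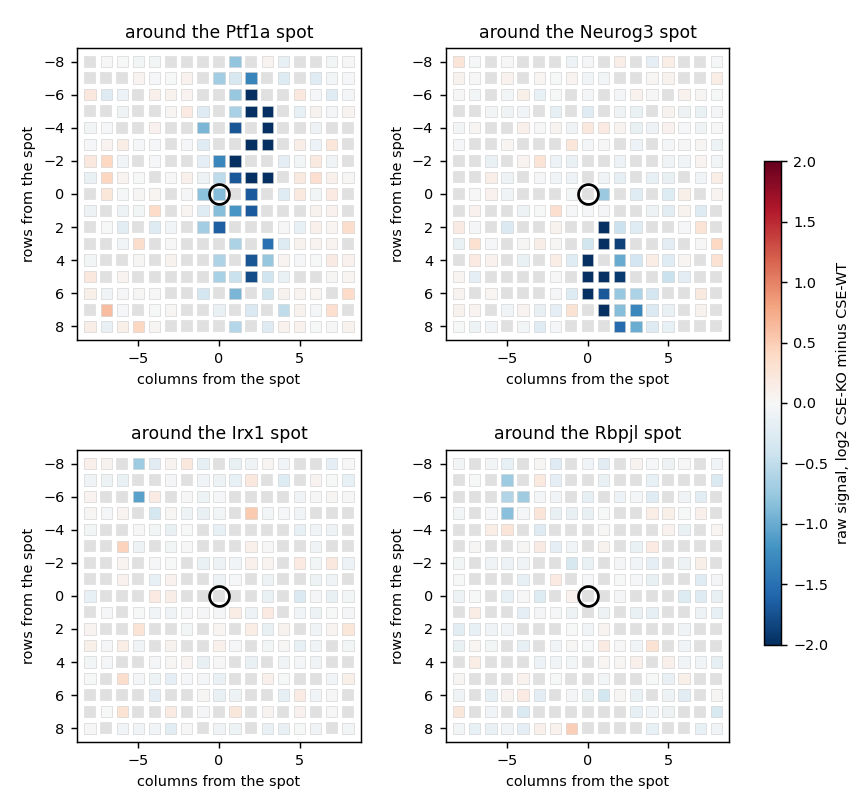
Raw signal difference between the arrays (log2 CSE-KO minus CSE-WT, colour) of the dim spots within 8 rows and columns of 4 member spots, each circled at 0. Grey squares are spots with raw signal of 200 units or more on both arrays, which are not coloured, and blue squares are dim spots brighter on CSE-WT. A band of dark blue spots runs past Ptf1a and another begins beside Neurog3, whereas around Irx1 and Rbpjl a few paler blue spots lie at a distance.

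Of the 5 remaining members, Ovol2, a zinc finger factor of epithelial identity, was higher in CSE-KO by over 3 spot SD, at 9442 units in CSE-KO and 8029.9 units in CSE-WT (0.18, 1.13-fold higher). It came within 3 spot SD with spike-in scaling (0.14) and with normexp at the 75th percentile (0.14). The ETS factor Etv1 was level with its brighter probe (-0.02) and at 0.25 with a dimmer one. The 3 probes of Tcf7l2, a Wnt pathway effector whose human gene carries a risk locus for type 2 diabetes, gave 0.18, 0.33 and -0.26 and all lay within 3 spot SD. Their readings were 524, 97.5 and 27.4 units in CSE-KO and 445, 74.8 and 31.5 units in CSE-WT. The homeodomain factor Meis2 was at -0.10, and Mycl1, now named Mycl, was not well above background. Of the 11 members with more than 1 measured probe, 6 had probes that all pointed the same way and 5 had probes that pointed both ways.

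**Figure D5:**
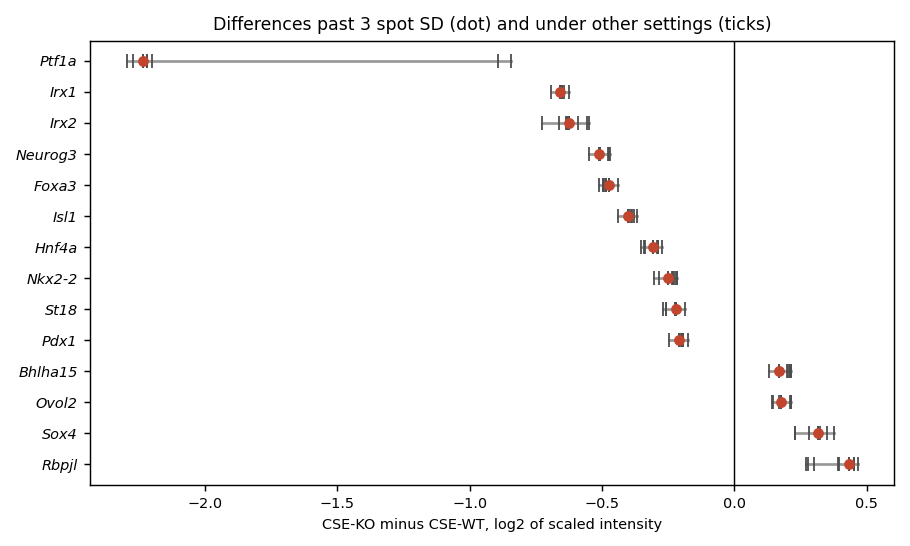
Difference between the CSE-KO and CSE-WT arrays (log2 units, horizontal axis) of the 14 members over 3 spot SD, as reported (red dots) and under the other scalings, background corrections, filters and probe choices tried (ticks, with grey lines over their range). No member crosses 0, and Ptf1a moves most, from -2.30 to -0.84.

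Regulators of the islet and pancreas outside the 40 members showed no common direction. Of 22 listed, 19 were measured, 10 of them higher (9 to 11 over the scalings and background corrections) and 9 lower, with a median of 0.01, and 3 were higher (1 to 4 over the other settings) and 5 lower (3 to 5) by over 3 spot SD, against 9.66% and 10.7% of all measured genes. Among them were the nuclear receptor gene Hnf4g, at 27.7 units in CSE-KO and 52.1 units in CSE-WT (-0.97), and the repressor gene Bach2, at 86.8 units in CSE-KO and 53.9 units in CSE-WT (0.63). Both were dim, and with normexp correction or another scaling they ranged from -1.03 to -0.32 and from 0.28 to 0.67.

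Markers of non-endocrine cells differed as well. All 6 measured of 7 stellate cell and fibroblast markers were higher in CSE-KO by over 3 spot SD (9.66% of all measured genes), with a median of 0.64. That count was 4 with spike-in scaling and 3 with normexp, with all 6 still higher. The smallest difference was that of Acta2, at 0.08 with a spot SD of 0.022. The summed intensity of the 6, before scaling as for the sums below, was 2994 units in CSE-KO and 2181 units in CSE-WT. Pdgfra was not above background. Of 7 macrophage markers, 6 were higher and 1 lower (48.7% and 51.3% of all measured genes), with Csf1r turning to -0.00090 under 1 correction. By over 3 spot SD, 3 were higher and 1, Lyz2 (-0.41), was lower, against 9.66% and 10.7% of all measured genes. The sums of the 7 markers were 13538 units in CSE-KO and 10981 units in CSE-WT. Of 7 measured ductal markers 4 were higher and 3 lower (48.7% and 51.3% of all measured genes), with Cftr not above background. The 7 summed to 49463 units in CSE-KO and 47885 units in CSE-WT, of which Krt18 alone gave 42483 and 40679 units. Of those 7, 2 were higher and 1 lower by over 3 spot SD (9.66% and 10.7% of all measured genes). The water channel gene Aqp1 read 515 units in CSE-KO and 215 units in CSE-WT (1.21, 2.31-fold higher). The osteopontin gene Spp1 read 929 units in CSE-KO and 621 units in CSE-WT (0.53). Lower by over 3 spot SD was Krt7, at 5447 units in CSE-KO and 6275 units in CSE-WT (-0.26). Muc1 was at -0.68, within 3 spot SD, from a probe in a patch. The 6 endothelial markers all lay within 3 spot SD. They summed to 30189 units in CSE-KO and 29537 units in CSE-WT, of which Kdr gave 22498 and 22018 units. Because the scaling value was higher for CSE-KO (539.6 against 519 units), the small gaps in the ductal and endothelial sums need not remain after scaling. The part of these markers in the differences of the factors was not tested.

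The promoter sequences of 3 members, Irx2, Isl1 and Sox4, are given as examples of members that differed by over 3 spot SD outside patches and were read from several probes or from 10 spots. They are RefSeq sequences on build GRCm38.p6, from 250 bases before to 50 bases after the transcript start, 5′ to 3′ along the gene. Capitals mark every match, on either strand, to the homeodomain core TAAT, the FOXA motif TGTTTAC, the E-box CAGCTG, the second E-box CAGATG, the GATA factor motif GATAAG and the SOX motif AACAAT.
Irx2, chr13:72628570-72628869, plus strand: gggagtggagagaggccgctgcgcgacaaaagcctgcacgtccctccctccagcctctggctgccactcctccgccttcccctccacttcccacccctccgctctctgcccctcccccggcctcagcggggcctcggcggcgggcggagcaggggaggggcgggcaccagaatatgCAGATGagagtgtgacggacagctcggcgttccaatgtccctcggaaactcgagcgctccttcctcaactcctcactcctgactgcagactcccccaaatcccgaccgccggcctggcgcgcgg
Isl1, chr13:116309639-116309938, minus strand: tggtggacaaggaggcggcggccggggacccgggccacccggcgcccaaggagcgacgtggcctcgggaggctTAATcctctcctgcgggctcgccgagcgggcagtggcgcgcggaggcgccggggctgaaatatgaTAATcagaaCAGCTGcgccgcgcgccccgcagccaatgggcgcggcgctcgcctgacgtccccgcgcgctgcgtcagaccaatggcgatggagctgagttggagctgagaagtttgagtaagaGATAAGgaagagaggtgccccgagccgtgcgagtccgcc
Sox4, chr13:28953650-28953949, minus strand: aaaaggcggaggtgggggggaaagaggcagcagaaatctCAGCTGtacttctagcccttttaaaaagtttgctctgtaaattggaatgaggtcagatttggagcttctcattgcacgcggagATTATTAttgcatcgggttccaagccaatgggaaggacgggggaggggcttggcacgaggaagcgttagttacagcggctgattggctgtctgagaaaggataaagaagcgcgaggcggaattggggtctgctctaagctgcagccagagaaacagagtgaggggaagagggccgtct
The Irx2 promoter held the second E-box at 1 place. The Isl1 promoter held the homeodomain core at 2 places, the first E-box at 1 and the GATA factor motif at 1. The Sox4 promoter held the first E-box at 1 place and the homeodomain core at 2 places that overlap each other. Over the 42 promoter entries of 32 members, TAAT was present in 59.5%, against 58.0% of all 32851 promoters of that length. The shares for members and for all promoters were 4.76% and 3.65% for the FOXA motif, 14.3% and 16.3% for the first E-box, 14.3% and 17.2% for the second E-box, 14.3% and 7.44% for the GATA factor motif, and 9.52% and 10.7% for the SOX motif. These matches describe letters in a window and are not evidence of binding.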

How the data were processed

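Total RNA was extracted with TRIzol, column-purified, amplified and Cy3-labelled, per the labels' protocols. Processed intensity per spot came from Agilent Feature Extraction 10.7.1.1, per the file headers (9.5.1.1, per the submitters' processing notes). Both arrays were on 1 slide and in 1 scan. The authors' deposited probe table of linear intensities (median 37.7 units on both arrays) tracked the processed signal (Pearson r = 0.9999 on each array, across probes that are no independent replicates) and was used as an alternative. Its exact steps are not given in the sources used here.

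From the 59305 gene spots per array, outlier spots (169 on CSE-KO, 139 on CSE-WT) were left out, log2 was taken, spots of a probe were averaged and the 75th percentile was subtracted. No spot was saturated. By the files' flag, 33177 probes (59.6%) were well above background on CSE-KO and 31716 (57.0%) on CSE-WT. Spot SD came from 285 probes printed 10 times. A spot was in a patch when at least 3 dim spots (raw signal under 200) within 3 rows and columns differed at least 2-fold the same way. limma 3.58.1 (R 4.3.3) gave quantile, cyclic loess and normexp (offset 50) alternatives, and Python 3.11.15 with numpy 2.4.6 and pandas 2.3.3 the rest. The counting steps were run on simulated data whose spread was drawn from the spot SD itself, without patches or spread between samples. That run checks the steps and says nothing on whether the counts hold for other mice. Gene names are those of the array files, and names looked up through accessions gave no further member probes.

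No test could be made with a single array for each genotype, and that number limits the precision. The members and lists were chosen with earlier results of these data known. Members described with values were the 12 with the largest differences, those past 2-fold, 17 lineage factors and those whose probes point both ways, with the 3 largest of each other list and Ins1, Ins2, Gcg, Sst and Amy2a5. Some genes that this rule takes are not reported here. The other members are named to account for all of them.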

Additional observations from a re-analysis of the deposited data

How the results depend on the processing

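The 12 alternatives changed the scaling (median, quantile, cyclic loess, spike-in probes), the background correction (normexp, with 75th percentile or quantile scaling), the source (the authors' deposited table), the filter on dim probes (none, or genes above the median level), the probe of a gene (mean of measured probes), the probe names and the use of patch probes. The median member difference stayed between -0.14 (spike-in probes) and -0.060 (normexp, quantile), and each of the 14 members over 3 spot SD kept its sign under every alternative that could give its value. Ptf1a, the 1 member at least 2-fold lower, left that count at 0 with normexp and the 75th percentile, with normexp and quantile scaling, among genes above the median level and without patch probes. The count was 2 with no filter on dim probes, where all 40 members have a value. Members higher by over 3 spot SD numbered 2 with spike-in scaling and 2 with normexp and the 75th percentile, against 4, so the split of higher and lower was 2 and 13, and 2 and 11, against 4 and 10. Among the 20 members above the median level 6 were higher, because fewer members remained. Over all measured genes, the shares higher and lower by over 3 spot SD were 12.4% and 7.93% with median scaling and 7.37% and 14.7% with spike-in scaling (7 probes), against 9.66% and 10.7%. The cause of these shifts was not tested. No paired analysis was possible because each genotype had 1 array, and no replicate could be left out. Signal over background limits dim members such as Nr5a2, Gata4 and Rfx3, whose spot SD exceeds 0.24 log2 units.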
